A study of Rattus norvegicus with 4 samples.

Results

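Described here are 7 immediate-early transcription factor genes in MMQ cells, a rat pituitary tumour line that secretes prolactin, after treatment with the dopamine D2 receptor ligand UNC9994. The members were fixed by gene ID, with the symbol that goes with each ID: Fos (ENSRNOG00000008015), Fosb (ENSRNOG00000046667), Jun (ENSRNOG00000026293), Junb (ENSRNOG00000042838), Egr1 (ENSRNOG00000019422), Nr4a1 (ENSRNOG00000007607) and Myc (ENSRNOG00000004500). They are 7 of 33833 distinct IDs in the series table, and all 7 were among the 14056 IDs with at least 10 reads in at least 2 libraries. The study used 4 libraries: vehicle (DMSO) for 12 h, vehicle for 24 h, UNC9994 at 15 µM for 12 h and UNC9994 at 15 µM for 24 h. All cells grew in 2.5% fetal bovine serum and 15% horse serum, so every group, the vehicle groups included, carried serum. Each combination of treatment and time was 1 library, with no replicate.

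Immediate-early genes are transcribed within minutes of a signal, without new protein synthesis, and most of their mRNAs decay quickly. Serum and growth factors reach them through ERK and the serum response factor SRF, which binds CArG boxes, and cyclic AMP reaches them through CREB, which binds cyclic AMP response elements (CREs). Their products are transcription factors: FOS proteins bind DNA as dimers with JUN proteins in the AP-1 complex, EGR1 and the orphan nuclear receptor NR4A1 bind sites of their own, and MYC acts on growth and ribosome genes. In lactotrophs the D2 receptor couples to inhibitory G proteins that lower cyclic AMP, and it also recruits beta-arrestin. UNC9994 is known as a D2 ligand biased towards beta-arrestin.

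The 4 libraries held 17433867 to 21728374 reads, recovered from the deposited FPKM (fragments mapped to a gene, divided by its length in kilobases and by a depth factor). Intervals given with FPKM and with ratios are 95% intervals for counting error alone (exact Poisson and exact binomial). They hold no spread between cultures. The recovered reads rest on the shortest gene model length that gives whole numbers, and a multiple of that length would give more reads and narrower intervals. In RNA from whole cultures, fewer expressing cells and less RNA per cell cannot be told apart. Prolactin and the other markers of the cell type were not analysed here, since the files do not pair their IDs with names.

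Upstream sequence was searched for CRE and CArG motifs, the best known control elements of immediate-early genes, and is shown for Nr4a1 and Junb. Nr4a1 held the most CRE cores of the members searched, and neither window shown holds a CArG box. The sequences are the 250 bases before the annotated start, read 5′ to 3′ on the strand of the gene, from RefSeq on build GRCr8, while the expression values were made on Rnor_6.0. Of the 7 members, 4 matched the promoter table (Fosb, Junb, Egr1 and Nr4a1), and the others are Fos, Jun and Myc. Capitals mark every match to the CRE core TGACG on either strand (CGTCA when it lies on the other strand) and to the CArG box. The Nr4a1 window is chr7:134259888-134260137 (plus strand) and the Junb window chr19:40080876-40081125 (plus strand).
Nr4a1: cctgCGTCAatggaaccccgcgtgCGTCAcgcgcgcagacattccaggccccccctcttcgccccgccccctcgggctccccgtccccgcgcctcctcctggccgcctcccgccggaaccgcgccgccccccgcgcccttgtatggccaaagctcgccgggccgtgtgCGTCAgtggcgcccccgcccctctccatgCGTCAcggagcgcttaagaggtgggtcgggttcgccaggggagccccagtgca
Junb: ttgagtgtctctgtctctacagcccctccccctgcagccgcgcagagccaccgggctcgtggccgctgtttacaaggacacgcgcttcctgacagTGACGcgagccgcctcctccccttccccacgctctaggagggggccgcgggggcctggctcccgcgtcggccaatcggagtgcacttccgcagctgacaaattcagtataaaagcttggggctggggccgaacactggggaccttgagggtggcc

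The Nr4a1 window held 4 CRE cores, which begin 246, 226, 82 and 53 bases before the start. Among the 33469 promoters of the table, 18.2% held at least 1 such core in 250 bases and 0.173% held at least 4. Egr1 held 2 cores, at 135 and 66 bases, and 2 CArG boxes, at 105 and 83 bases. At least 1 CArG box was found in 501 of the 33469 promoters and at least 2 in 7. Junb held 1 core, at 155 bases, and Fosb none. The full CRE (TGACGTCA, which contains the core) and the AP-1 site TGANTCA were searched on both strands too, and matched in none of the 4 windows, against 1.59% and 6.34% of all promoters. A match is a run of letters, not a measured site.

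FOS family. Fos, the inducible FOS partner in AP-1, fell with UNC9994 in the test over both times, and its value was lower at each. It stood at 2.55 FPKM in DMSO at 12 h (interval 2.02 to 3.16), 2.69 in DMSO at 24 h (2.12 to 3.37), 0.637 in the UNC9994 library of 12 h (0.404 to 0.956) and 0.293 in that of 24 h (0.140 to 0.539). Both vehicle values lay above both drug values, and the intervals of the treatments did not overlap. Drug against vehicle, Fos was lower by a factor of 4.00 at 12 h (2.49 to 6.66) and of 9.19 at 24 h (4.74 to 19.9). The last value rests on 10 reads in the UNC9994 library against 76 in DMSO. Vehicle alone changed little between the times, with a ratio of 1.06 (0.763 to 1.46).

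The effect common to both times was tested with limma on log2(FPKM + 0.5) over all 14056 IDs, with a term for time. The residual of this fit is the mismatch between the 12 h and the 24 h response. Fos fell by 1.72 on this log2 scale (SE 0.21, limma adjusted p = 0.017, lower in 2 of 2 times). This fit called 8.57% of all IDs, 3.41% as higher and 5.16% as lower, and called 2 of the 7 members, Fos as lower and Jun as higher. The call of Fos was lost when all IDs above 0 were tested (adjusted p = 0.15) or the variance trend was left out (0.053). With the time term dropped it was 0.019, and it then missed the threshold without the DMSO 12 h library (0.087) or the DMSO 24 h library (0.073).

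Fosb, a close relative of Fos whose shorter splice form is known to accumulate under chronic stimulation, was near its vehicle level at 12 h and below it at 24 h. It stood at 1.46 FPKM in DMSO at 12 h, 1.76 in DMSO at 24 h, 1.52 in UNC9994 at 12 h and 0.746 in UNC9994 at 24 h. The other libraries were alike, with overlapping intervals, and the UNC9994 24 h library lay below them. The ratio of drug to vehicle was 1.04 at 12 h (0.802 to 1.36), while at 24 h the drug library was lower by a factor of 2.36 (1.71 to 3.28). Its common effect of -0.41 (SE 0.25) did not pass the test (limma adjusted p = 0.35).

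JUN family. Jun, the AP-1 subunit that can pair with itself or with FOS proteins, rose with UNC9994 in the test over both times, and its value was higher at each. It stood at 5.58 FPKM in DMSO at 12 h (5.01 to 6.20), 2.64 in DMSO at 24 h (2.23 to 3.11), 14.2 in the UNC9994 library of 12 h (13.3 to 15.1) and 6.54 in that of 24 h (5.94 to 7.18). The drug library was the higher at each time, while DMSO at 12 h and UNC9994 at 24 h lay close together. The ratio of drug to vehicle was 2.55 at 12 h (2.25 to 2.89), against 2.47 at 24 h (2.05 to 3.01), a log2 effect of 1.22 (SE 0.13, limma adjusted p = 0.014, higher in 2 of 2 times).

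The level of Jun also differed between the times, by nearly as much as between treatments. It was 2.11-fold lower at 24 h than at 12 h in DMSO (1.73 to 2.58) and 2.17-fold lower in UNC9994 (1.94 to 2.44). The call therefore rests on comparing drug and vehicle within each time: with the time term dropped, the adjusted p was 0.15. With single libraries left out as well it ran from 0.056 without UNC9994 24 h, through 0.15 without DMSO 12 h and 0.38 without DMSO 24 h, to 0.39 without UNC9994 12 h, and the log2 effect from 0.69 to 1.75. Testing all IDs above 0 (0.12) or leaving out the variance trend (0.052) also ended it.

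Junb, a JUN protein that is a weaker activator than JUN and can restrain it, was the most abundant AP-1 member measured here. Its levels were 19.7 FPKM in DMSO at 12 h, 19.99 in DMSO at 24 h, 28.03 in UNC9994 at 12 h and 22.9 in UNC9994 at 24 h. The vehicle libraries were nearly equal and the UNC9994 12 h library was the highest. The ratio of drug to vehicle was 1.43 at 12 h (1.30 to 1.57), against 1.15 at 24 h (1.03 to 1.27). The common effect of 0.35 (SE 0.11) did not pass the test (limma adjusted p = 0.11), and it passed in none of the 14 other fits.

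**Figure D1:**
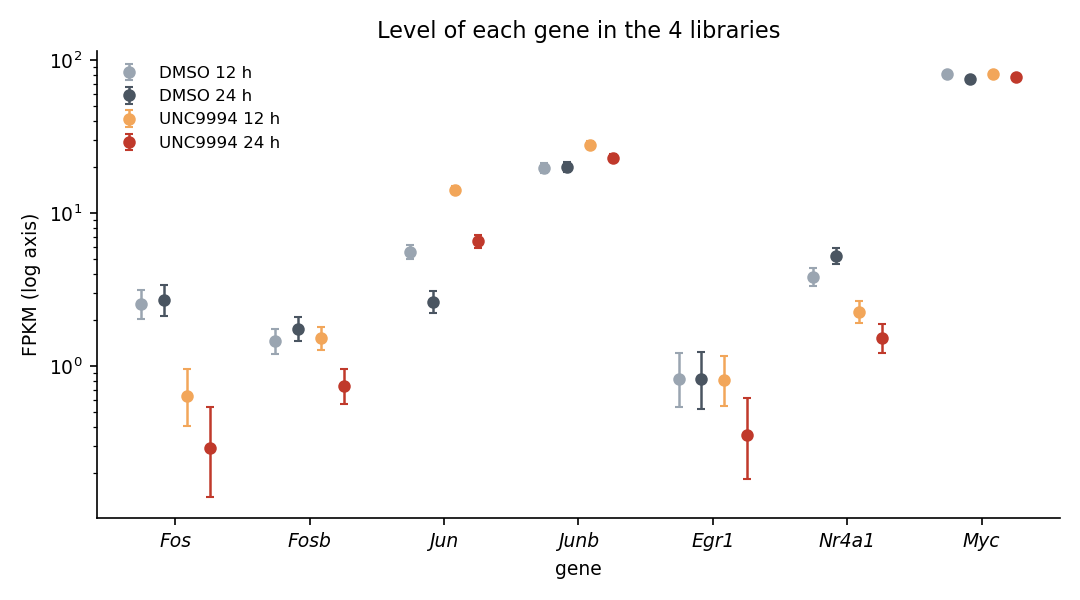
FPKM (log axis) of the 7 genes in the 4 libraries, 1 point per library, with bars for the 95% Poisson interval of counting error. Fos lies lower in both UNC9994 libraries, Jun lies higher with UNC9994 at each time, and Myc is near 80 FPKM in every library (74.97 to 81.3).

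With Fos lower and Jun higher, the make-up of the transcripts of Fos, Fosb, Jun and Junb differed between treatments. Other AP-1 genes were not analysed here, so no share of all AP-1 transcripts is given. Fos and Fosb together came to 4.00 FPKM in DMSO at 12 h, 4.45 in DMSO at 24 h, 2.15 in UNC9994 at 12 h and 1.04 in UNC9994 at 24 h. Jun and Junb together came to 25.2, 22.6, 42.2 and 29.5 FPKM in the same order. The FOS pair thus made up 13.7% of the sum of the 4 genes in DMSO at 12 h, 16.4% in DMSO at 24 h, 4.85% in UNC9994 at 12 h and 3.41% in UNC9994 at 24 h. Jun transcripts outnumbered Fos transcripts, per length, by 2.19 to 1 in DMSO at 12 h and were level with them in DMSO at 24 h (0.981 to 1). With UNC9994 the ratio was 22.3 to 1 at both times, on only 23 Fos reads at 12 h and 10 at 24 h. No counting interval was computed for this ratio, so its likeness at both times is not a precise result. These sums repeat the values of the single genes and were not tested.

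**Figure D2:**
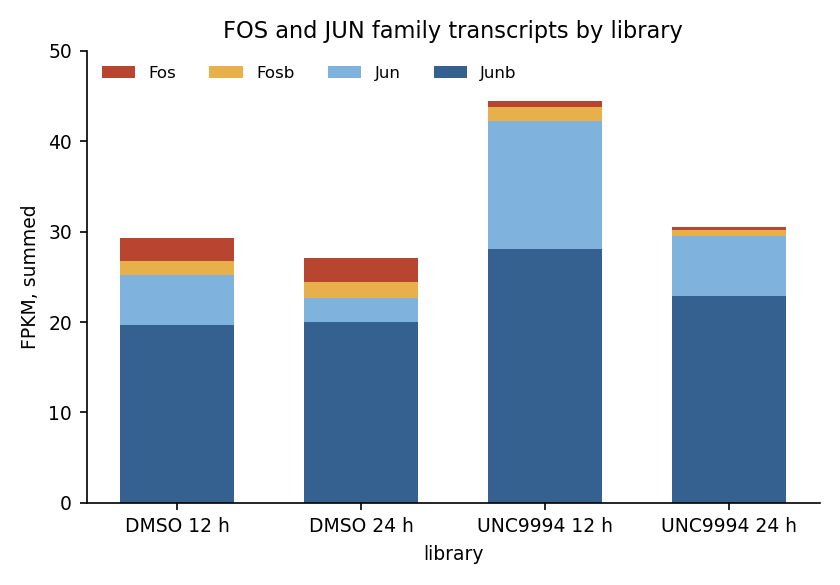
Stacked bars of FPKM for Junb, Jun, Fosb and Fos in each library, with no error drawn because each bar is 1 library. Fos and Fosb together make up 13.7% and 16.4% of the bar in DMSO and 4.85% and 3.41% in UNC9994, where the Fosb segment itself is about equal in both treatments at 12 h (1.46 and 1.52 FPKM), and the Jun segment is widest in UNC9994 at 12 h.

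EGR1 and NR4A1. Egr1, a zinc finger factor and a standard readout of ERK signalling, was the lowest member in both DMSO libraries. It stood at 0.830 FPKM in DMSO at 12 h, 0.827 in DMSO at 24 h, 0.815 in UNC9994 at 12 h and 0.357 in UNC9994 at 24 h, on 26, 23, 29 and 12 recovered reads. The UNC9994 24 h value was the lowest, but its interval (0.184 to 0.623) overlapped those of the other libraries. Drug over vehicle gave 0.982 at 12 h (0.559 to 1.74), and at 24 h Egr1 was lower by a factor of 2.32 (1.11 to 5.11), but the common effect of -0.32 (SE 0.21) did not pass the test (limma adjusted p = 0.37). The 12 h interval holds 1.

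Nr4a1, the gene of the nuclear receptor NUR77 and a known target of cyclic AMP signalling in the pituitary, was lower with UNC9994 at both times, but not past the threshold. Its levels were 3.83 FPKM in DMSO at 12 h (3.32 to 4.39), 5.25 in DMSO at 24 h (4.62 to 5.94), 2.27 in the UNC9994 library of 12 h (1.90 to 2.68) and 1.52 in that of 24 h (1.22 to 1.88). Both vehicle libraries lay above both drug libraries. The drug library was below its vehicle by a factor of 1.69 at 12 h (1.35 to 2.11) and of 3.45 at 24 h (2.69 to 4.45). The common effect was -1.08 (SE 0.24, limma adjusted p = 0.055). It passed in 2 of the other 14 fits, with robust moderation (0.047) and with limma-voom on the recovered reads (0.0084), and its adjusted p reached 0.20 over the rest.

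Myc, the growth regulator, was the most abundant member and did not differ detectably. It stood at 80.6 FPKM in DMSO at 12 h, 74.97 in DMSO at 24 h, 81.3 in UNC9994 at 12 h and 77.97 in UNC9994 at 24 h. The ratio of drug to vehicle was 1.01 at 12 h (0.969 to 1.05), against 1.04 at 24 h (0.995 to 1.09), and both intervals hold 1. The common effect was 0.03 (SE 0.07, limma adjusted p = 0.79), and its sign turned to -0.02 without the DMSO 24 h library.

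In DMSO at 12 h the order of the levels per length was Myc, Junb, Jun, Nr4a1, Fos, Fosb and Egr1. The counting intervals of neighbours overlapped only for Fosb and Egr1. At 24 h in DMSO Jun dropped below Nr4a1 and stood level with Fos, the only overlapping neighbours. In both UNC9994 libraries the order was Myc, Junb, Jun, Nr4a1, Fosb, Egr1 and Fos, with Fos and Egr1 overlapping in both and Fosb and Egr1 overlapping at 24 h. Myc was above 92.2% of the tested IDs in DMSO at 12 h, whereas Fos was above 23.3% there and above 3.48% in UNC9994 at 24 h.

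**Figure D3:**
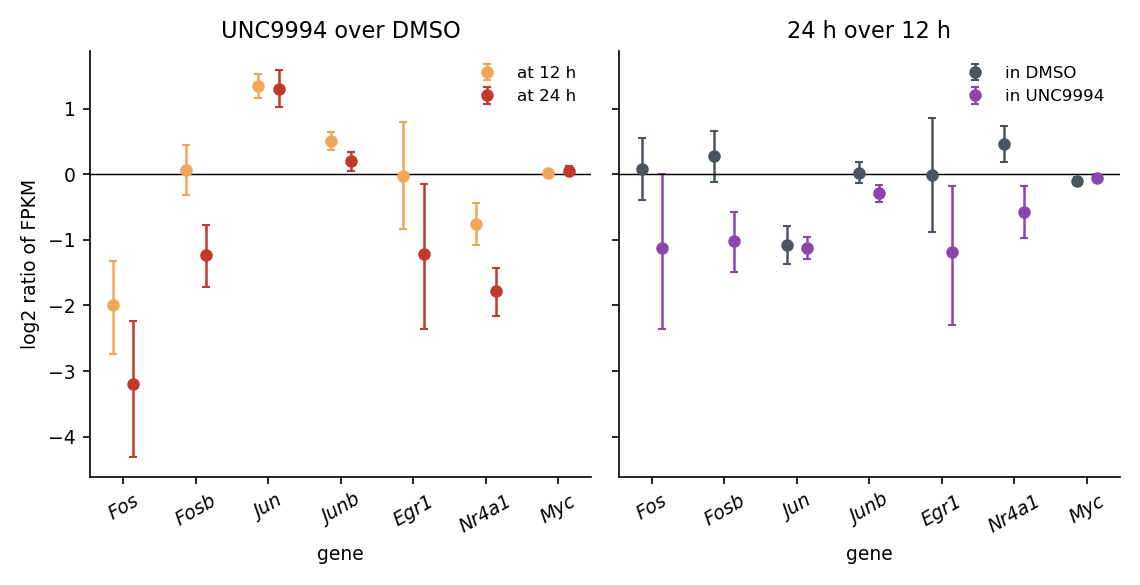
Log2 ratios of FPKM, with 95% counting intervals, for drug over vehicle at each time (left) and for 24 h over 12 h in each treatment (right). Fos and Nr4a1 lie below 0 and Jun above 0 at both times on the left, and on the right Jun is about equally below 0 in DMSO (-1.08) and in UNC9994 (-1.12).

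Counts of 2-fold differences were made on the log2(FPKM + 0.5) scale, which understates changes of low genes, and carry no test. At 12 h, 1 of 7 members was at least 2-fold lower (Fos) and 1 higher (Jun), against 3.07% and 1.82% of all tested IDs. At 24 h, 2 members were lower (Fos and Nr4a1) and 1 higher (Jun), against 1.99% and 1.42%. With no pseudocount 5 of 7 passed 2-fold in either direction at 24 h, since Fosb and Egr1 were added, and the share of all tested IDs on that scale was 7.42%. Fos, Fosb, Egr1 and Nr4a1 had a mean of 20 to 200 reads, a range chosen after the data were seen. On the scale with the pseudocount, 6.73% of the 3613 IDs in that range differed 2-fold in either direction at 12 h and 5.15% at 24 h. Without the pseudocount no share was made for that range. The median log2 ratio of the 7 members was 0.01 at 12 h and -0.63 at 24 h, while that of all tested IDs was -0.0024 and -0.00042.

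Ranked among the 14056 IDs by this ratio, Fos was number 166 from the lowest at 12 h and number 23 at 24 h. Nr4a1 moved from number 893 to number 52. Jun was number 126 from the highest at 12 h and number 131 at 24 h. The ranks place Fos and Jun near the ends of the distribution at both times and Nr4a1 there at 24 h, and depend on the same single libraries as the ratios.

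**Figure D4:**
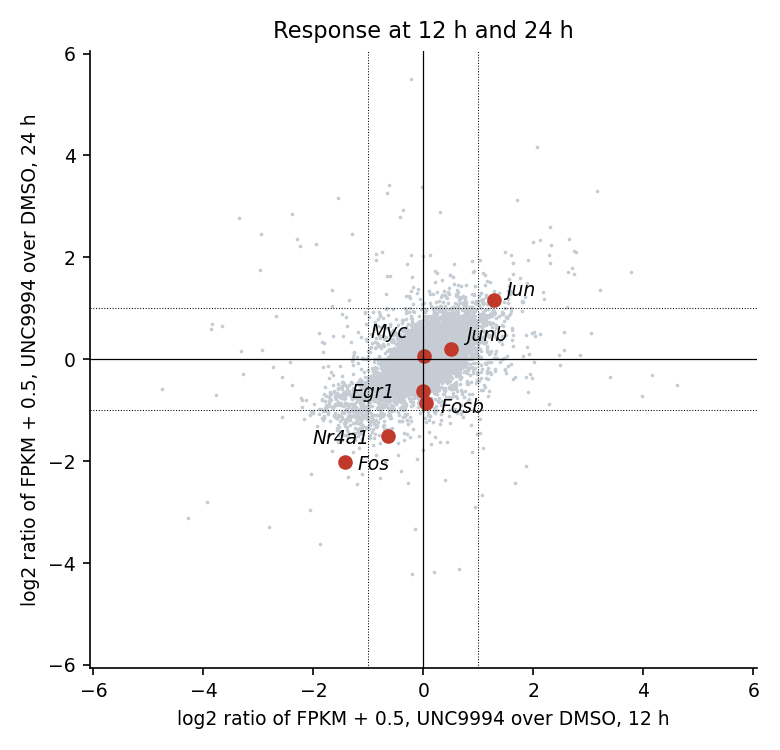
Log2 ratio of FPKM + 0.5 for UNC9994 over DMSO at 12 h (x axis) against 24 h (y axis), 1 grey point per tested ID (14056) and the 7 genes in red, with dotted lines at 2-fold. Jun lies past 2-fold upward and Fos past 2-fold downward at both times, and Fosb and Egr1 lie near 0 at 12 h and below 0 at 24 h.

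Between 12 h and 24 h in DMSO, no member reached 2-fold on the same scale, against 0.74% of IDs higher at 24 h and 0.598% lower. In UNC9994, 1 of 7 did (Jun, lower at 24 h), against 0.726% higher and 0.583% lower. Nr4a1 was 1.37-fold higher at 24 h in DMSO (1.13 to 1.66) and 1.49-fold lower in UNC9994 (1.13 to 1.97). Egr1 was level in DMSO (0.997) and 2.28-fold lower at 24 h in UNC9994 (1.13 to 4.92), and Fosb was 2.03-fold lower there (1.49 to 2.81). These changes with time share their libraries with the drug ratios above and are not separate evidence.

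In plain FPKM the drug ratio differed at least 2-fold between the times for 4 of 7 members, all lower at 24 h. Of all tested IDs, 6.93% differed at least 2-fold in either direction on that scale, and the share lower was not computed. No such share was made for IDs with as few reads as these members. The further drop was 2.30-fold for Fos (0.972 to 5.76), 2.46-fold for Fosb (1.61 to 3.76), 2.28-fold for Egr1 (0.874 to 6.05) and 2.04-fold for Nr4a1 (1.45 to 2.87). The counting intervals of Fosb and Nr4a1 leave out 1, and those of Fos and Egr1 do not, at the shortest gene model lengths that fit. A multiple of the length, not excluded for Egr1, would narrow its interval. For Jun the ratio of ratios was 0.972 (0.773 to 1.23) and for Myc 1.03 (0.970 to 1.09). Junb lay between, at 1.24-fold lower (1.08 to 1.43). On the scale with the pseudocount 0 of 7 members passed 2-fold for this difference, against 2.95% of all IDs. A difference between the times leaves the 4 libraries with no residual, so it could not be tested against a spread between cultures. All 4 of these values also share the UNC9994 24 h library, whose part in them was not tested.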

How the data were processed

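Polyadenylated RNA of 4 MMQ cultures was sequenced. Per the submitters' processing notes, CASAVA, TopHat2 2.0.7, Bowtie2, HTSeq and build Rnor_6.0 were used, in roles that are not stated. Annotation and strand handling: not given in the sources used here. Values were made by the authors, who deposited FPKM, per the file headers. After 1209 exact repeats were removed, 33832 IDs had the same value in the series and single-sample tables. Reads were recovered as whole numbers (tolerance 0.001 reads) for all 16009 IDs above 0 in every library. Recovered totals were 95.6% to 99.6% of the divisors. The median-of-ratios scaling factor (the inverse of the median ratio to the geometric mean) was 0.998 in every library, so the deposited values already carried that scaling.

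limma 3.58.1 (R 4.3.3) was run on log2(FPKM + 0.5) with time and treatment terms, a variance trend and Benjamini-Hochberg adjustment (threshold 0.05). It had 1 residual degree of freedom and 4.48 prior ones, and its p-values measure only the spread among these libraries. Fits and read recovery were tested on simulated data. All members are named, and the IDs most like Fos were picked by profile distance. Members, lists and tests were chosen with earlier results of these data known. The 6 lists of related genes (109 genes) were not analysed here, since the reference table pairs 0 of its 47357 genes with an Ensembl ID. Alternatives covered pseudocount, filter, scaling, variance model, time term and libraries left out.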

Additional observations from a re-analysis of the deposited data

Results flagged for a closer look

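Several members moved in opposite directions in groups under the same contrast, each on 1 library per group, so the difference was not tested. Fosb was slightly higher with UNC9994 at 12 h (log2 ratio 0.06) and lower at 24 h (-1.24), a difference of -1.30. The 12 h interval (0.802 to 1.36 as a ratio) holds 1, so no direction is shown there. From 12 h to 24 h, 4 genes (Fos, Fosb, Junb and Nr4a1) were higher in DMSO and lower in UNC9994. The share of all tested IDs with this pattern was not computed, so the count does not set these genes apart. The log2 change in UNC9994 minus that in DMSO was -1.20 for Fos, -1.30 for Fosb, -0.31 for Junb and -1.03 for Nr4a1. By arithmetic this is the same quantity as the difference of the drug ratio between the times, and is not separate evidence. Of these 4 genes, only Nr4a1 had a change in DMSO whose counting interval left out 1 (1.13 to 1.66).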

How the results depend on the processing

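With no replicates, the test leaned on its settings. Against 1204 IDs and 2 members called, the fit called 0 IDs and 0 members with no filter on low values (3795 IDs with an unadjusted p under 0.05) and 0 and 0 with no variance trend (3660). limma-voom on recovered reads called 2374 IDs and 3 members (Nr4a1 added). With no time term 1 member was called, and with single libraries left out as well 86 to 782 IDs and 0 to 1 members. A treatment left with 1 library was assumed to vary like the other. The causes were not tested. Of 97 alternative values of the members' effects, 83 kept direction and side of the threshold, 11 missed it, 2 newly passed it and 1 changed sign (Myc, from -0.0167 without the DMSO 24 h library to 0.0866 without the DMSO 12 h library). Egr1 left the test when FPKM of at least 1 in 2 libraries was required.

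With a pseudocount of 0.1 and with none, the number of IDs differing 2-fold was 1049 and 1294 at 12 h, 834 and 1043 at 24 h, 389 and 563 with time in DMSO, 352 and 504 with time in UNC9994, and 721 and 974 for the difference between times. Members numbered 5 and 5 at 24 h, 1 and 1 with time in DMSO (Jun), 2 and 4 with time in UNC9994, and 1 and 4 for the difference between times. Of 175 alternative member ratios, 174 moved by less than the counting error of the ratio, the exception being Fos at 24 h (-3.20 with no pseudocount, -2.01 as counted). Median-of-ratios scaling could change nothing, since the deposited values carry it. Egr1 and Fos rest on 12 and 10 reads in UNC9994 at 24 h, which gives their ratios wide counting intervals, and the spread between cultures was not measured.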

Other observations

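The profile of Fos over the 4 libraries was most like that of 2 IDs that the files do not name. The likeness was the distance between log2(FPKM + 0.5) profiles centred on their own mean, over 14049 other IDs and 4 libraries. ENSRNOG00000054739 came first, at a distance of 0.30 log2 units. It stood at 13.03 FPKM in DMSO at 12 h, 17.95 in DMSO at 24 h, 5.74 in UNC9994 at 12 h and 3.37 in UNC9994 at 24 h. On this scale it was lower with the drug at 12 h (log2 -1.12) and at 24 h (-2.25), against -1.42 and -2.01 for Fos. Its level was several times that of Fos, and the added 0.5 understates changes of low genes. With no pseudocount the Fos values were -2.00 and -3.20. The further drop of Fos at 24 h had a counting interval that holds 1 (0.972 to 5.76 as a fold). ENSRNOG00000054165 came next, also at 0.30, with 1.31 and 1.71 FPKM in DMSO and 0.243 and 0.128 FPKM in UNC9994 at 12 h and 24 h. Both were chosen for their likeness, so their values are a description.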
